A study of Mus musculus with 14 samples.

Results

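The transcription factor NRF2 (gene Nfe2l2), its inhibitor KEAP1 (Keap1), the antioxidant and glutathione genes that NRF2 is known to drive, and the glutathione transferases were examined in the ovary and uterus of aged mice. The group holds 34 genes chosen by name, all 34 were found among the 21853 genes measured, and the rule used no measured value. It comprises 2 regulators, 4 other NRF2 targets (Nqo1, Hmox1, Txnrd1, Srxn1), 5 genes of glutathione synthesis and recycling (Gclc, Gclm, Gsr, Gss, Slc7a11) and 23 glutathione transferases. Of the transferases, 20 are cytosolic or kappa class enzymes (Gsta1 to Gsta4, Gstk1, Gstm1 to Gstm7, Gsto1, Gsto2, Gstp1, Gstp2, Gstt1 to Gstt3, Gstz1) and 3 are microsomal (Mgst1 to Mgst3).

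In unstressed cells, KEAP1 holds NRF2 and hands it to a ubiquitin ligase for destruction. Oxidants and electrophiles modify KEAP1, NRF2 then accumulates in the nucleus, and it binds antioxidant response elements near its target genes together with a small MAF protein. Glutathione transferases couple glutathione to electrophiles, including products of lipid peroxidation, and some of them reduce peroxides.

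RNA-seq was performed on the ovary and the uterus of 7 C57BL/6J female mice, which were 28 weeks old, giving 14 libraries. The 4 OT (old treatment) mice were treated with AMSC-CM, a medium conditioned by mesenchymal stem cells from human amniotic membrane, which was injected into the tail vein 6 times at intervals of 4 days, with 1 µL for each g of body weight. The 3 OC (old control) mice had received saline on the same schedule. All mice of both groups had first been given pregnant mare serum gonadotropin and human chorionic gonadotropin, 10 IU each and 48 h apart, to bring their cycles into phase. The medium was pooled over donors and concentrated, and the controls received no unconditioned medium, so the medium and what the cells released into it cannot be told apart. The comparison of OT with OC asks how the treatment altered the reproductive organs of aged mice. Each p-value below measures only the spread between these mice or, in fits of both tissues, between their libraries.

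Values were FPKM, the fragments mapped to a gene, scaled to transcript length and to how many fragments each library mapped. The read depth of each library is unknown, since FPKM had been scaled to it, and the total FPKM ranged from 374816 to 577494. The labelled tissues were checked by marker genes. The summed level of 11 granulosa and luteal markers was 5605 to 7088 FPKM in the ovaries and 9.17 to 25.9 FPKM in the uteruses, and that of 11 uterine markers was 3723 to 6563 FPKM in the uteruses. The ovary libraries also held uterine markers (350 to 1235 FPKM) and oviduct and ciliated cell markers (466 to 986 FPKM, of which Ovgp1 alone was 424 to 942 FPKM) in amounts that differed between libraries. The OT1 uterus library stood apart. It had the highest total FPKM and was the only uterus with the brown fat gene Ucp1 above 1 FPKM (210 FPKM) and with the urothelial genes Upk2 (16.2 FPKM) and Upk3a (48.7 FPKM) above 1 FPKM.

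Genes that averaged 0.5 FPKM or more over the libraries compared were fitted by limma on log2(FPKM + 0.1). A gene was called between OT and OC where its log2 fold change was 1 or more in size and its unadjusted p was 0.05 or less, the cutoffs of the study, and Benjamini-Hochberg adjusted p over all genes tested are given beside these. Of the members, 31 passed the filter in the ovary and 32 in the uterus. Gsta1 was listed at 0 in all 14 libraries, Gstm3 lay between 0 and 0.144 FPKM, and Gsto2 was tested in the uterus but not in the ovary, where it lay between 0.165 and 0.891 FPKM.

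The core of the antioxidant response element, TGACNNNGC read on either strand (letters that can overlap an AP-1 element), was looked for in the RefSeq promoter windows of the members, which run from 250 bases before to 50 bases after each transcription start (GRCm38.p6). A window was listed for 29 of the 34 members, and none for Hmox1, Gclc, Gsr, Gsta4 and Gstt2. Of the 40 windows of these members, 8 held the motif, 1 in each of 8 members, against 12.39% of all 32851 windows. They are shown because they are the member promoters that carry the letters of an NRF2 element, with 10 bases on each side, the motif in capitals and the direction of transcription from left to right.
Nfe2l2: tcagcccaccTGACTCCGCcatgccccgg
Gclm: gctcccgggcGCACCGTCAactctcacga
Txnrd1: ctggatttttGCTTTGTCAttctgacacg
Srxn1: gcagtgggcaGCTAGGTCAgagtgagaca
Gsta3: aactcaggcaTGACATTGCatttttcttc
Gstm5: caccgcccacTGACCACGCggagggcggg
Gstm7: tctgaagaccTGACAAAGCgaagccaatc
Mgst1: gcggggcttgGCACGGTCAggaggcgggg
The first base of the motif lay 240, 134 and 92 bases before the start in Nfe2l2, Gclm and Txnrd1, 28 bases after it in Srxn1, and 121, 42, 129 and 56 bases before it in Gsta3, Gstm5, Gstm7 and Mgst1. A match is a description of letters and not a site that NRF2 was seen to bind. The 250 bases before the RefSeq start are also given for Gsta3 (chr1:21240335-21240584, plus strand), because it was the transferase with the smallest p between OT and OC, with the motif in capitals.
Gsta3 promoter: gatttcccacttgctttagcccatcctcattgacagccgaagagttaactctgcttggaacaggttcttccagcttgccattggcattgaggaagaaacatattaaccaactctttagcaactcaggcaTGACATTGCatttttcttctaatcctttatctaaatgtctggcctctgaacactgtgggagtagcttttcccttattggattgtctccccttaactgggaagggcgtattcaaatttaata

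Nfe2l2 (chr2:75675513-75704641, minus strand, mm10) and Keap1 (chr9:21229730-21239361, minus strand) were expressed in every library, and their OT and OC values overlapped in both tissues. Nfe2l2 measured 64.5, 59.8 and 59.7 FPKM in the OC ovaries and 57.3, 64.7, 65.5 and 59.2 FPKM in the OT ovaries. In the uterus it measured 42.7, 54.5 and 47.5 FPKM in OC and 57.2, 44.6, 39.0 and 48.2 FPKM in OT. The log2 fold changes were 0.01 (95% interval -0.15 to 0.17) in the ovary and -0.04 (-0.41 to 0.33) in the uterus. Keap1 measured 22.1, 21.6 and 20.9 FPKM in the OC ovaries and 23.3, 22.0, 20.4 and 22.2 FPKM in the OT ovaries. In the uterus it measured 19.6, 18.7 and 18.3 FPKM in OC and 20.6, 18.4, 18.6 and 18.6 FPKM in OT. Its intervals were also narrow, -0.13 to 0.18 in the ovary and -0.25 to 0.27 in the uterus, so that a change of 2-fold lay outside them for both regulators in both tissues.

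Nqo1, a quinone reductase and a standard readout of NRF2, was low in these organs. It measured 3.64, 4.55 and 3.04 FPKM in the OC ovaries against 4.88, 4.95, 4.496 and 4.70 FPKM in the OT ovaries. The OT ovaries lay above the OC ovaries except that OT3 was just under OC2, and the log2 fold change of 0.35 (SE 0.15, unadjusted p = 0.0468, adjusted p = 0.997, limma) was below the fold cutoff. In the uterus Nqo1 measured 8.13, 6.99 and 5.93 FPKM in OC and 12.7, 10.0, 11.0 and 6.62 FPKM in OT. Here 3 OT uteruses lay above all OC uteruses and OT4 lay among them (log2 fold change 0.49, SE 0.24, adjusted p = 0.613, limma).

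Hmox1, which breaks down heme, measured 39.9, 24.5 and 30.3 FPKM in the OC ovaries and 31.0, 32.3, 32.5 and 28.8 FPKM in the OT ovaries, all OT values lying within the OC range. In the uterus it measured 8.04, 9.68 and 8.35 FPKM in OC and 13.8, 17.2, 10.8 and 7.33 FPKM in OT. As for Nqo1, OT1, OT2 and OT3 were above the OC uteruses and OT4 was not (log2 fold change 0.43, SE 0.27, adjusted p = 0.627, limma). Txnrd1, the cytosolic thioredoxin reductase, measured 36.5, 33.5 and 37.1 FPKM in OC and 35.9, 36.7, 34.1 and 32.1 FPKM in OT ovaries. Its uterine values were 28.02, 22.4 and 22.3 FPKM in OC and 23.3, 20.0, 17.7 and 23.3 FPKM in OT, with overlapping groups. Srxn1, which repairs overoxidized peroxiredoxins, measured 22.9, 19.3 and 21.7 FPKM in OC and 24.1, 20.4, 19.9 and 21.3 FPKM in OT ovaries. In the uterus Srxn1 measured 14.5, 10.9 and 11.0 FPKM in OC and 17.7, 13.8, 13.7 and 11.8 FPKM in OT, again without separation.

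Among the genes of glutathione synthesis, the catalytic (Gclc) and modifier (Gclm) subunits of the rate-limiting ligase were both near their control levels. Gclc measured 26.1, 19.1 and 23.6 FPKM in the OC and 32.3, 21.7, 22.1 and 24.3 FPKM in the OT ovaries, and 18.7, 10.4 and 9.86 FPKM in the OC and 13.0, 9.84, 12.2 and 12.4 FPKM in the OT uteruses. Gclm measured 14.6, 14.2 and 14.7 FPKM in the OC and 14.8, 17.0, 14.6 and 17.0 FPKM in the OT ovaries, and 17.1, 13.0 and 13.9 FPKM in the OC and 20.0, 16.1, 18.1 and 16.8 FPKM in the OT uteruses. Neither gene separated the groups. Slc7a11, the cystine importer that feeds this pathway, was even in the ovary (5.70, 4.18 and 4.35 FPKM in OC, 4.98, 3.69, 4.48 and 4.72 FPKM in OT) and variable in the uterus. There it measured 6.85, 2.26 and 3.49 FPKM in OC and 0.669, 7.28, 1.63 and 2.46 FPKM in OT, so the lowest and the highest uterus were both OT (log2 fold change -0.80, 95% interval -2.46 to 0.86). Gss, the glutathione synthetase, was the 1 gene of this class with every OT uterus above every OC uterus. It measured 7.995, 9.14 and 8.94 FPKM in OC and 10.4, 10.3, 10.8 and 10.2 FPKM in OT, a small difference (log2 fold change 0.26, SE 0.12, adjusted p = 0.609, limma). In the ovary Gss went the other way on average (log2 fold change -0.18), with 10.5 to 12.4 FPKM in OC and 8.58 to 11.6 FPKM in OT, and the groups overlapped. Gsr, which returns oxidized glutathione to its reduced form, lay between 26.2 and 33.4 FPKM in the ovaries and between 17.2 and 32.1 FPKM in the uteruses.

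**Figure D1:**
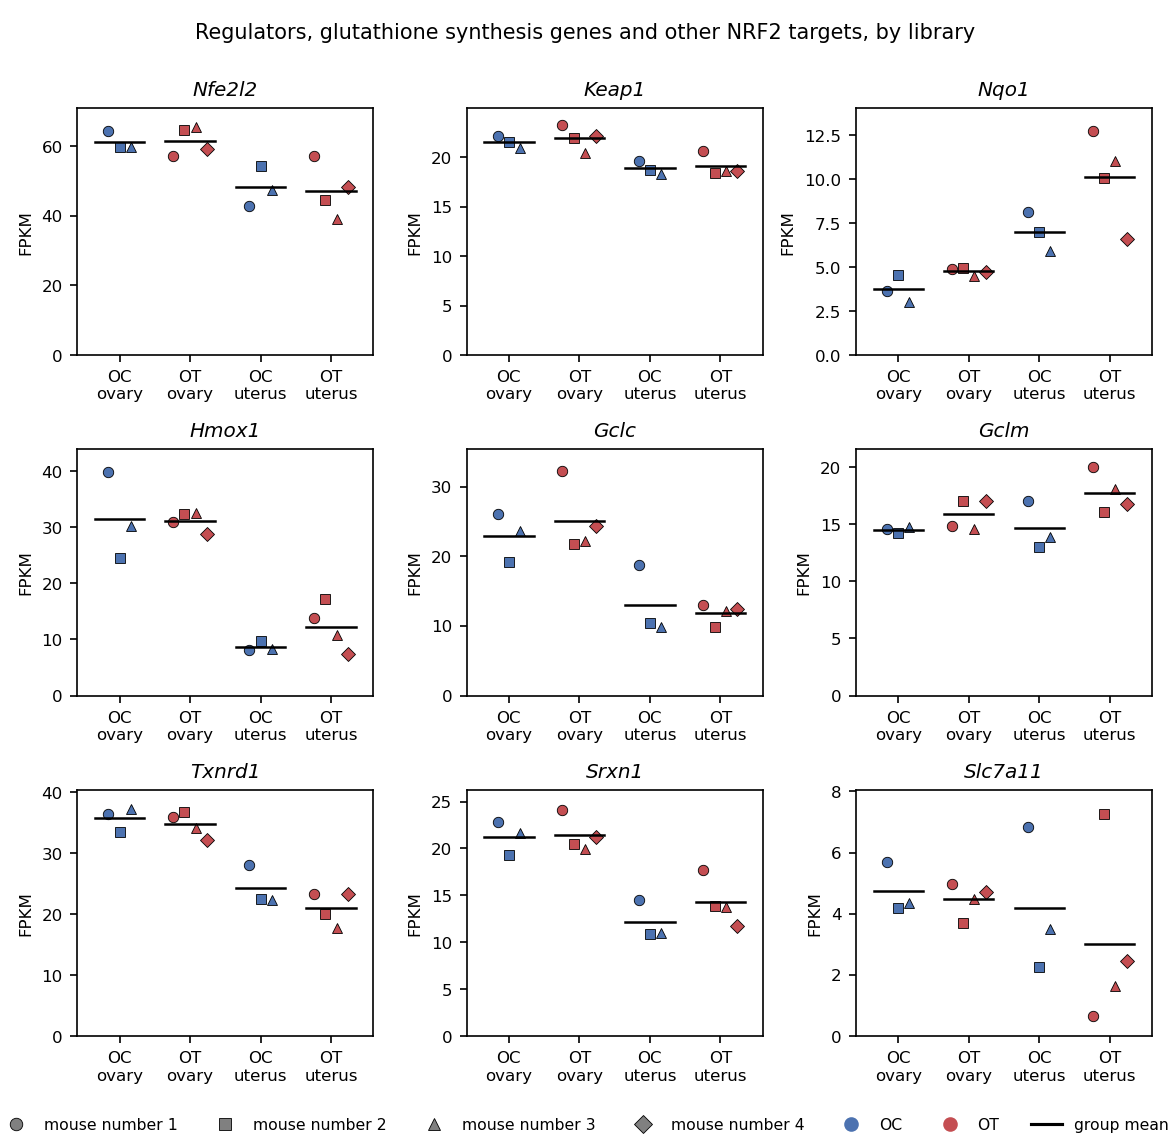
FPKM (y axis, from 0) of Nfe2l2, Keap1, Nqo1, Hmox1, Gclc, Gclm, Txnrd1, Srxn1 and Slc7a11 in the 4 groups of libraries, with a symbol shape for the mouse number within its group and a line for the group mean. OC and OT libraries overlap within each tissue in these 9 panels. The uterus lies below the ovary for Nfe2l2 (narrowly), Hmox1, Gclc, Txnrd1 and Srxn1 and above it for Nqo1.

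In the ovary, no member was called in either direction, where 0.368% of all genes tested were called higher and 0.0832% lower. The median log2 fold change of the 31 members was 0.01, against -0.01 over all genes tested. Of the members, 19 were above 0 and 12 below, where 46.6% of all genes tested were above 0. The values ran from -0.47 (Gsta2) to 0.61 (Gsta3), and the smallest adjusted p of a member was 0.997 by limma. An unadjusted p of at most 0.05 was reached by 2 of the 31 members, Nqo1 and Gstz1, against 4.51% of all genes tested. Every OT ovary lay above every OC ovary for 1 member, Gstz1, where 2.78% of all genes did so, and below for 0 members, where 3.13% did.

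Gstz1 (chr12:87147165-87164723, plus strand) encodes maleylacetoacetate isomerase, a zeta class transferase of tyrosine breakdown. It measured 22.8, 20.8 and 22.9 FPKM in the OC ovaries and 49.8, 33.5, 23.1 and 29.9 FPKM in the OT ovaries. OT1 was the highest and OT3 was barely above the controls (log2 fold change 0.56, SE 0.22, unadjusted p = 0.0305, adjusted p = 0.997, limma). The summed level of 12 adipocyte markers in these OT ovaries was 2017, 1486, 324 and 541 FPKM from OT1 to OT4, against 270 to 398 FPKM in the OC ovaries, and with the mean log2 level of these markers in the fit the ovarian log2 fold change of Gstz1 was 0.05 (SE 0.13, adjusted p = 0.9998, limma). Of these 12 markers, 5 were called higher in the OT ovaries, where 0.368% of all genes tested were. This fit therefore cannot cleanly divide treatment from adipocyte content, and the part of adipocyte content in Gstz1 was not tested. In bulk tissue, more cells of a type and more RNA per cell cannot be told apart. Gsta3 was also higher on average in the OT ovaries, with 13.0, 13.3, 6.77 and 8.28 FPKM against 8.33, 4.48 and 7.24 FPKM, but the groups overlapped and its 95% interval of the log2 fold change ran from -0.05 to 1.27.

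In the uterus, 5 glutathione transferases were called higher in OT and no member was called lower, where 2.23% of all genes tested were called higher and 0.664% lower. The 5 were Gsta3, Gsta4, Gstz1, Mgst2 and Mgst3, and no regulator, glutathione synthesis gene or other NRF2 target was among them. No member reached an adjusted p under 0.05, and the smallest was 0.485 by limma. Every OT uterus lay above every OC uterus for 7 members (the 5 called, Mgst1 and Gss), where 6.46% of all genes did so, and below for 0 members, where 5.48% did. The median log2 fold change of the 32 members was 0.28, against 0.01 over all genes tested. Of the members, 24 were above 0 and 8 below, where 51.1% of all genes tested were above 0. By class, the medians were 1.49 for the 3 alpha class genes tested, 1.12 for the 3 microsomal genes, 0.34 for the 2 pi class, 0.28 for the 3 theta class, 0.24 for the 2 omega class and -0.11 for the 6 mu class genes tested, beside 0.42 for Gstk1 and 1.19 for Gstz1, the single genes of their classes. They were 0.33 for the 4 other NRF2 targets, -0.01 for the 2 regulators and -0.07 for the 5 genes of glutathione synthesis and recycling.

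**Figure D2:**
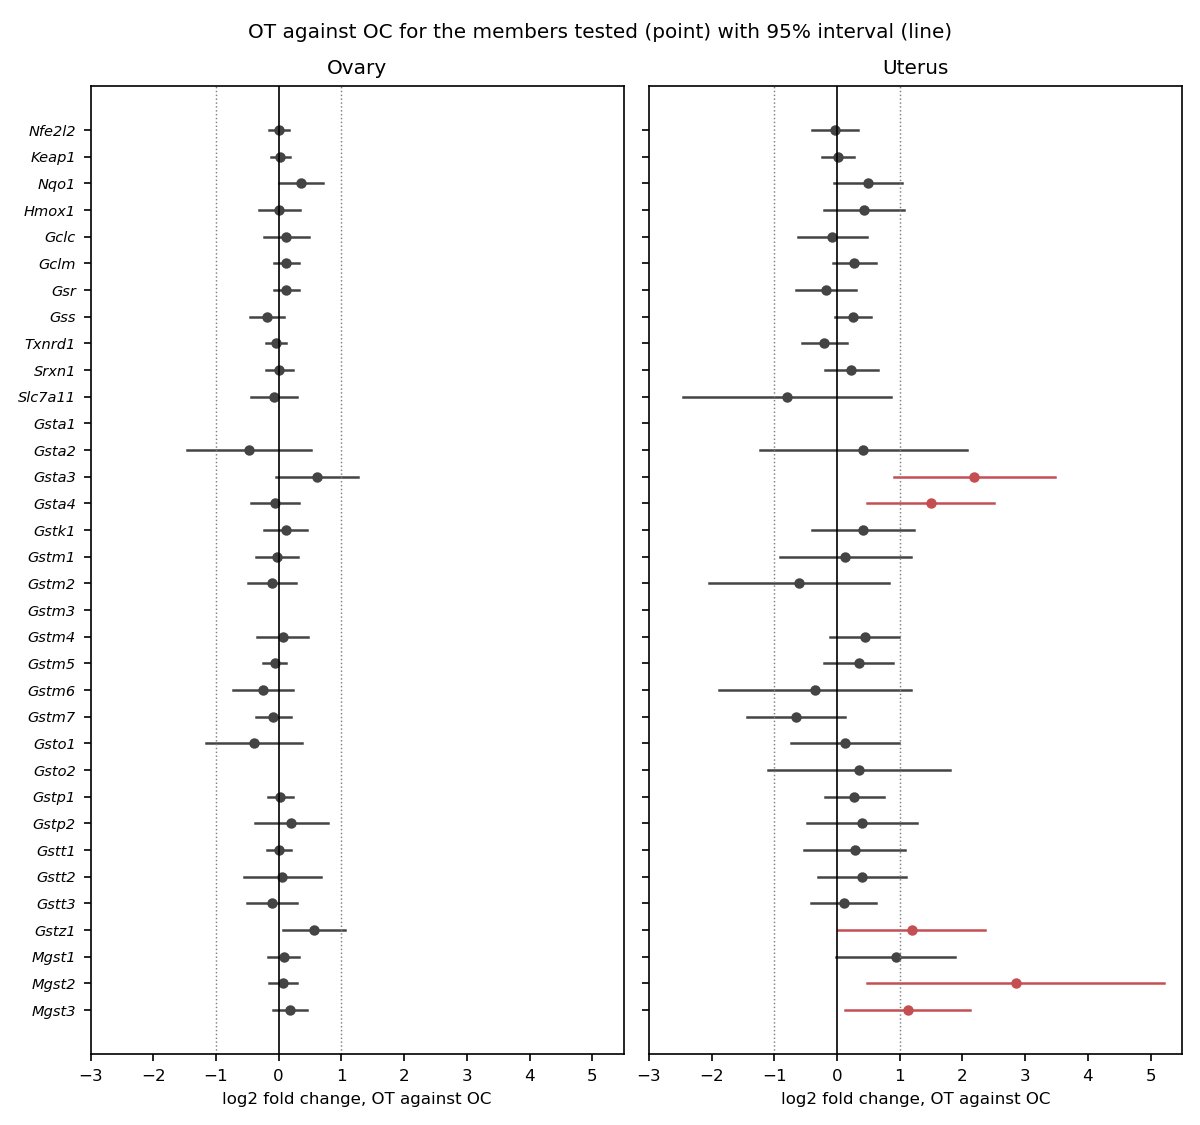
Log2 fold change of OT against OC (point) with its 95% interval (line) for the members tested in the ovary (left) and uterus (right), on a log2 axis with dotted lines at -1 and 1; red marks the members called. No ovarian member is called, and the 5 called in the uterus are Gsta3, Gsta4, Gstz1, Mgst2 and Mgst3, whose intervals are wide.

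Gsta3 (chr1:21240589-21265661, plus strand), an alpha class transferase known in the mouse for conjugating the aflatoxin epoxide, was called with the smallest p of the 5. It measured 1.83, 1.40 and 1.24 FPKM in the OC uteruses (1.49 ± 0.309, SD, n = 3) and 23.1, 4.97, 4.97 and 4.35 FPKM in the OT uteruses (9.34 ± 9.16, SD, n = 4). OT1 was far above the rest, and each of the other OT uteruses was still above every OC uterus. The log2 fold change was 2.19 (SE 0.56, unadjusted p = 0.00438, adjusted p = 0.485, limma), and without OT1 it was 1.63 (SE 0.21, adjusted p = 0.0871, limma).

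Gsta4 (chr9:78182774-78209349, plus strand), which clears the lipid peroxidation product 4-hydroxynonenal, measured 20.1, 15.2 and 11.6 FPKM in the OC uteruses (15.6 ± 4.27, SD, n = 3). In the OT uteruses it measured 97.5, 28.9, 46.1 and 26.3 FPKM (49.7 ± 33.1, SD, n = 4), with OT1 highest and OT3 next. The groups did not overlap, and the log2 fold change was 1.49 (SE 0.44, unadjusted p = 0.00951, adjusted p = 0.527, limma). Without OT1 it was 1.10 (SE 0.27, adjusted p = 0.298, limma) and was still called. Gsta3 and Gsta4 were called under the omission of each uterus in turn, which held for no other member.

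The 3 microsomal transferases are membrane proteins of the family that also makes leukotrienes. Mgst1 (chr6:138140316-138156755, plus strand), the most abundant of them, measured 140, 165 and 156 FPKM in the OC uteruses and 688, 265, 196 and 205 FPKM in the OT uteruses. All OT values were above all OC values, but its log2 fold change of 0.93 (SE 0.41, unadjusted p = 0.0527, limma) missed both cutoffs. In the ovary Mgst1 was the most abundant member, with 514, 506 and 448 FPKM in OC and 532, 597, 484 and 460 FPKM in OT, and the groups overlapped. Mgst3 (chr1:167371966-167393841, minus strand) measured 14.8, 13.0 and 11.7 FPKM in OC and 69.2, 20.8, 27.5 and 16.9 FPKM in OT, with the same library highest (log2 fold change 1.12, SE 0.43, adjusted p = 0.573, limma). Without OT1, the log2 fold changes of Mgst1 and Mgst3 were 0.52 and 0.70, below the fold cutoff, and their SE fell to 0.14 and 0.19.

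Mgst2 (chr3:51660360-51682677, plus strand) had the largest log2 fold change of the members, 2.85 (SE 1.03, unadjusted p = 0.0243, adjusted p = 0.55, limma), on values close to 0. It was listed at 0 in the OC1 uterus and measured 0.752 and 1.00 FPKM in the OC2 and OC3 uteruses. The OT uteruses measured 15.0, 2.24, 1.55 and 1.88 FPKM. Every OT value was above every OC value, but a value of 0 may be a failed estimate, and the log2 fold change fell to 1.76 (adjusted p = 0.697, limma) without OC1 and was no longer called. With 1 FPKM added in place of 0.1, the log2 fold change of Mgst2 was 1.54. In the ovaries Mgst2 lay between 33.1 and 43.2 FPKM.

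Gstz1 measured 24.1, 23.4 and 26.9 FPKM in the OC uteruses and 167, 39.9, 48.05 and 31.7 FPKM in the OT uteruses (log2 fold change 1.19, SE 0.51, adjusted p = 0.599, limma). It was thus the 1 member whose OT libraries lay above all OC libraries in both tissues. Both organs were taken to come from the same mice, and OT1 was the highest in both. The share of all genes with OT above OC in both tissues was not counted. In the uterus the unadjusted p of Gstz1, 0.0484 by limma, was close to the cutoff. Without OT1 the log2 fold change of Gstz1 was 0.67, below the fold cutoff, with a smaller unadjusted p of 0.00388. The calls of Gstz1 and Mgst3 were also lost when OC1, OC2, OC3 or OT3 was left out.

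**Figure D3:**
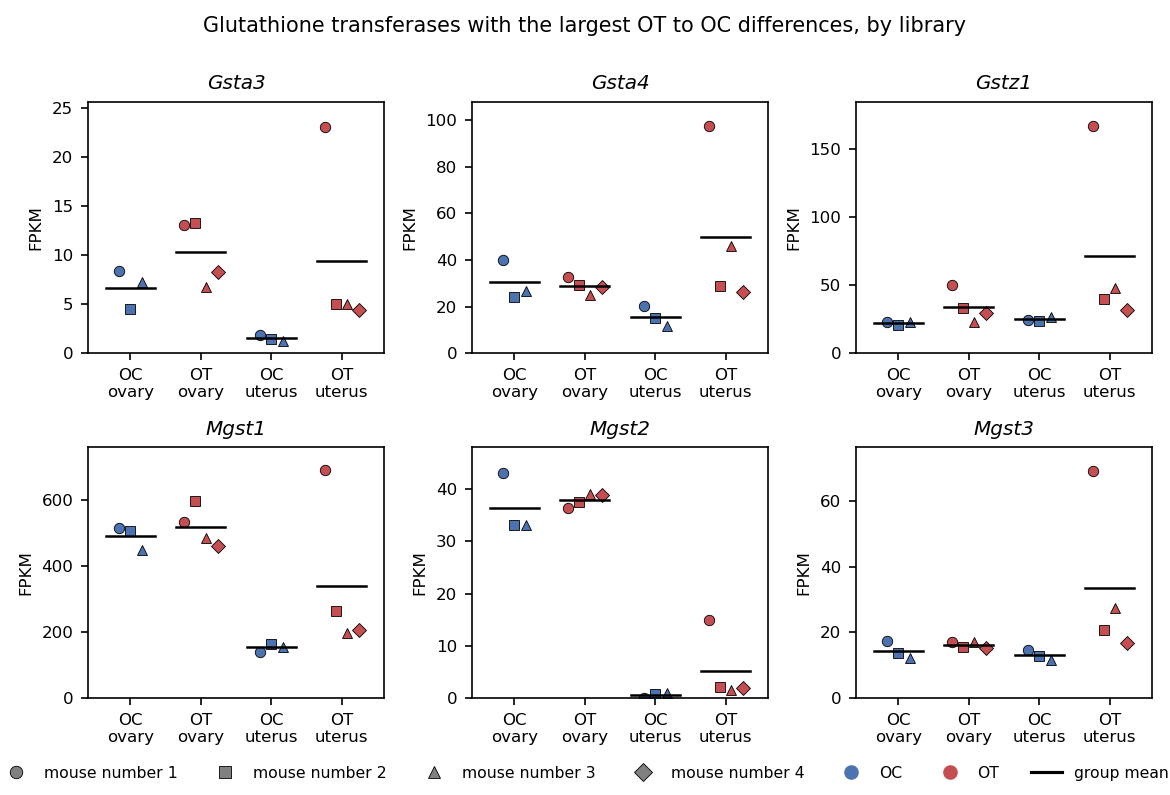
FPKM (y axis, from 0) of 6 glutathione transferases in the 4 groups of libraries, with a symbol shape for the mouse number within its group and a line for the group mean. In the uterus every OT library lies above every OC library in all 6 panels, and OT1 is highest each time (for example 23.1 FPKM of Gsta3 and 688 FPKM of Mgst1).

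The OT1 uterus was the highest library for 17 of the 32 members tested, where it was highest for 31.0% of all genes tested in the uterus. The median log2 difference of the members from the OC mean was 0.22, -0.02 and -0.15 in the OC uteruses and 0.66, 0.28, 0.19 and -0.01 in the OT uteruses from OT1 to OT4. OT3 and OT4 therefore lay within the range of the controls by this measure, and OT1 and OT2 above it. Without OT1, 3 of the 31 members then tested were called higher (Gsta3, Gsta4 and Mgst2), beside 243 of 14105 genes. The median over the 31 members was then 0.13. The summed level of the 23 transferases was 1636, 1018 and 930 FPKM in the OC uteruses and 2304, 1563, 1274 and 1085 FPKM in the OT uteruses. The OC1 uterus was above all OT uteruses but OT1 in this sum, and the groups overlapped.

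**Figure D4:**
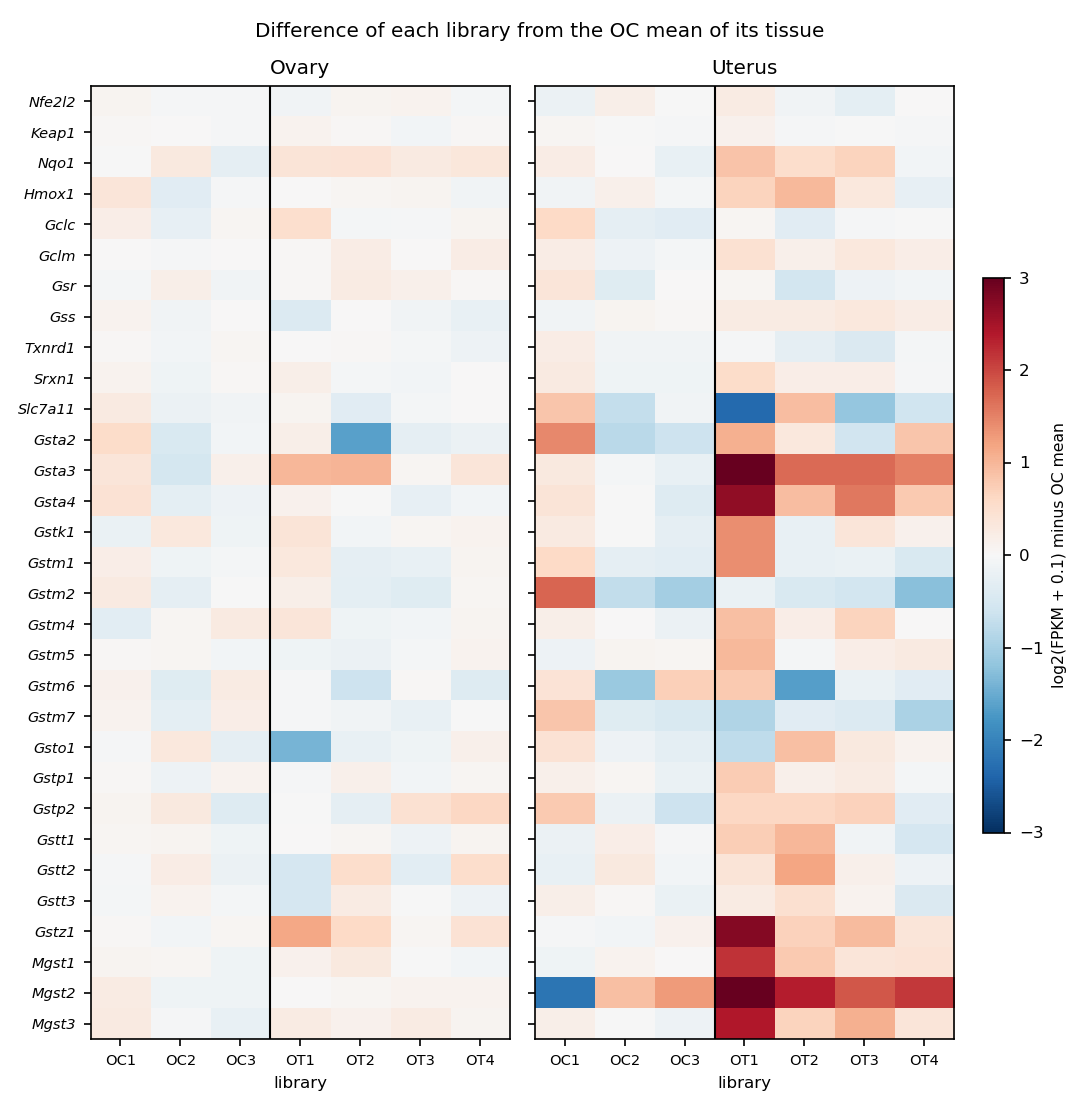
Difference of each library from the OC mean of its tissue in log2(FPKM + 0.1), on a colour scale that saturates at -3 and 3. Rows are the members that averaged 0.5 FPKM or more in both tissues, which leaves out Gsto2, and columns are the libraries of each tissue. The ovary panel is paler, while in the uterus the OT1 column is darkest for Gsta3, Gsta4, Gstz1 and the 3 Mgst genes, and OC1 stands out for Gstm2 and for Mgst2, which was listed at 0 there.

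Markers of some other cell types also differed between the uterus libraries. All 12 adipocyte markers were called higher in OT, with a summed level of 120 to 328 FPKM in the OC uteruses and 1415 to 12522 FPKM in the OT uteruses, and none was at 0 in any library. Adipoq, the adipocyte hormone adiponectin, lay between 8.40 and 28.6 FPKM in OC and between 117 and 777 FPKM in OT. Of the 9 stratified squamous markers tested, 6 were called higher. The summed squamous level was 2.75 to 13.1 FPKM in OC and 43.9 to 778 FPKM in OT. Sprr3, the listed squamous marker that was not tested, was at 0 in every library. Of 7 macrophage markers, 1 was called higher (summed level 202 to 218 FPKM in OC, 229 to 579 FPKM in OT). The squamous sum was highest in OT3 and the macrophage sum in OT2 (579 FPKM, against 434 FPKM in OT1). Of 6 granulosa and luteal markers tested, which are low in the uterus, 1 was called lower. The 11 uterine markers had a median log2 fold change of -0.35, and 0 were called. None of the brown adipocyte, urothelial or red blood cell markers was called, and all 3 sums were highest in OT1. The brown adipocyte sum was 705 FPKM in OT1 and 5.79 to 12.0 FPKM in the other uteruses. The urothelial sum was 217 FPKM in OT1, 82.1 FPKM in OT2 and 13.0 to 23.4 FPKM in the others, and the red blood cell sum was 1233 FPKM in OT1 and 137 to 445 FPKM in the others. In OT2 the urothelial sum came from Upk3b (56.8 FPKM), Upk1b (19.3 FPKM) and Upk1a (5.97 FPKM), with Upk2 and Upk3a at 0.

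When the mean log2 level of the adipocyte markers was added to the uterus fit, none of the 5 transferases was called. Their log2 fold changes became 0.12 (Gsta3), -0.065 (Gsta4), -1.003 (Gstz1), -1.34 (Mgst2) and -0.61 (Mgst3), with SE from 0.53 to 1.23. The median over the 32 members became -0.070, and Slc7a11 (2.40) and Gsto1 (1.73) were called higher instead. The adipocyte levels of OT and OC did not overlap in the uterus, so the treatment and the adipocyte content cannot be told apart in this fit. The parts of squamous, macrophage, brown adipocyte, urothelial and red blood cell content in these values were not tested.

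The mu class genes, which include the most abundant cytosolic transferases of the ovary, were not called in the uterus, where the values of Gstm1, Gstm2 and Gstm7 rested on 1 or 2 high libraries. Gstm1 measured 306, 169 and 163 FPKM in the OC uteruses and 534, 174, 177 and 149 FPKM in the OT uteruses, so that OT1 and OC1 were high and the other libraries close together. Gstm2 measured 403, 72.3 and 59.8 FPKM in OC and 106, 88.1, 81.8 and 50.2 FPKM in OT. The OC1 uterus was the highest library here, and the log2 fold change of -0.61 (95% interval -2.05 to 0.82) became 0.26 without it. Gstm7 was also highest in the OC1 uterus, 15.6 FPKM against 4.44 to 6.83 FPKM in the other 6. The oviduct secretory gene Ovgp1 was also highest in the OC1 uterus, 169 FPKM against 3.86 to 93.7 FPKM in the others. The ciliated cell markers Foxj1, Dnah5, Rsph1 and Tekt1 each had a higher value in another uterus than in OC1. The part of oviduct tissue in these values was not tested.

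In the ovary Gstm1 measured 238, 189 and 199 FPKM in OC and 257, 172, 179 and 219 FPKM in OT, and Gstm2 measured 262, 181 and 216 FPKM in OC and 247, 177, 168 and 226 FPKM in OT. The groups overlapped for both, and both were high in the same mice, OC1, OT1 and OT4. The 7 mu class genes lie side by side on chromosome 3 (chr3:107895821-108044894, 149.1 kb). Their coding sequences are alike, with 86.0% of bases identical between Gstm1 and Gstm2 and 89.5% between Gstm1 and Gstm3, so that their reads could have been divided between copies. Gstm4 (5.33 to 6.83 FPKM in OC, 6.09 to 11.4 FPKM in OT) and Gstm5 (56.5 to 65.9 and 59.7 to 123 FPKM) overlapped between the groups in the uterus.

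Gsto1, an omega class enzyme that reduces dehydroascorbate, measured 163, 209 and 139 FPKM in the OC ovaries and 63.6, 144, 154 and 188 FPKM in the OT ovaries. The OT1 ovary was lowest and the OC2 ovary highest, and the same libraries had the lowest (350 FPKM) and the highest (1235 FPKM) summed uterine markers of the ovaries, whose part was not tested. In the uterus Gsto1 measured 481, 318 and 288 FPKM in OC and 207, 655, 431 and 378 FPKM in OT, and the lowest and the highest uterus were again both OT. Gstp1, the pi class enzyme, was steady in the ovary (83.9, 73.3 and 88.1 FPKM in OC, 79.9, 91.1, 77.5 and 84.7 FPKM in OT). In the uterus it measured 86.1, 80.0 and 67.4 FPKM in OC and 131, 86.7, 92.0 and 73.9 FPKM in OT, again highest in OT1.

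Gstp2 lies beside Gstp1 on chromosome 19, shares 98.1% of its coding bases, and lay between 2.80 and 10.1 FPKM in all libraries. Gsta2 shares 97.47% of its coding bases with Gsta1, which was listed at 0 throughout, so the division of reads between them is uncertain. Gsta2 lay between 0.802 and 3.99 FPKM in the ovaries and between 0.164 and 1.16 FPKM in the uteruses. The theta class genes overlapped between OT and OC in both tissues, with log2 fold changes of 0.10 to 0.40 in the uterus. Gstk1, the kappa class enzyme of mitochondria and peroxisomes, lay between 10.6 and 15.3 FPKM in the OC uteruses and measured 33.2 FPKM in OT1 against 10.9 to 16.3 FPKM in the other OT uteruses.

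The effect of the treatment was compared between the tissues in 1 fit of all 14 libraries. This fit, also used below for uterus against ovary, had no mouse term, so both organs of 1 mouse counted as independent. The log2 fold change in the uterus exceeded that in the ovary by the same cutoffs for 3 of the 32 members, where 1.28% of all genes tested did so, and was lower for 0, where 0.556% of all genes were. The 3 were Mgst2 (difference of log2 fold changes 2.78, SE 1.12), Gsta3 (1.58, SE 0.69) and Gsta4 (1.54, SE 0.51). Their adjusted p was 0.844 by limma in each case. In the same comparison 5 of 12 adipocyte markers (median difference 2.16) and 6 of the 8 squamous markers tested (4.94) were called higher, and their part in it was not tested. For Gstz1 the difference was 0.62 (95% interval -0.69 to 1.94), so a difference between the tissues was not shown. For Mgst1 it was 0.85 (-0.14 to 1.85) and for Mgst3 0.95 (-0.11 to 2.00). For Gss it was 0.44 (0.10 to 0.79), below the fold cutoff, with an unadjusted p of 0.0162 and an adjusted p of 0.844 by limma. Gsta4 was called in this comparison under all 15 alternatives tried, among which the adipocyte covariate was not run.

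Between the tissues themselves, irrespective of treatment, many members differed, as did many of all genes tested. Here the call asked for a log2 fold change of 1 or more in size with an adjusted p under 0.05. It differs from the call between OT and OC and rests on 14 libraries, so the counts are not set side by side. Of the 32 members tested, 3 were called higher in the uterus, where 10.0% of all genes tested were, and 8 were called lower, where 9.59% were. In all, 20 of the 32 members had an adjusted p under 0.05, and 7698 of 14557 genes did. Adding the mouse as a block kept the 3 higher and 8 lower calls.

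The widest gap was in Mgst2, with a mean of 37.3 ± 3.57 FPKM in the ovary and 3.20 ± 5.24 FPKM in the uterus (SD, n = 7 each). It was lower in the uterus of all 7 mice, by a log2 fold change of -4.93 (SE 0.56, adjusted p = 7.52e-06, limma). Hmox1 was lower in the uterus of all 7 mice (-1.61, adjusted p = 2.90e-06), and the libraries of the tissues did not overlap. Gstm6 (-2.21) and Gsta2 (-2.15) were low genes that were lower still in the uterus of all 7 mice. Gstm7 (-1.33) was lower in the uterus of all 7 mice, and Gsta3 (-1.27), Mgst1 (-1.24) and Gstm2 (-1.11) in 6 of 7. The exception was mouse OT1 for Gsta3 and Mgst1, and mouse OC1 for Gstm2. The genes called higher in the uterus were Gsto1 (1.33), Gstt3 (1.28) and Gstm5 (1.22), each in all 7 mice.

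Below the fold cutoff, several further members differed between the tissues. Nfe2l2 (log2 fold change -0.37), Keap1 (-0.20), Gclc (-0.97), Txnrd1 (-0.64) and Srxn1 (-0.70) each had an adjusted p under 0.05 by limma and were lower in the uterus of all 7 mice. Gsr (-0.32) also passed and was lower in the uterus of 6 of 7 mice. Gstm4 (0.54) and Gstp2 (0.73) passed and were higher in the uterus of 6 of 7 mice. Nqo1 was higher in the uterus of all 7 mice (0.96, adjusted p = 9.26e-05, limma). Gclm (0.08), Gss (-0.17) and Slc7a11 (-0.66) did not pass this test. As the ovary libraries held uterine and oviduct markers, the tissue differences are those between the libraries as collected.

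**Figure D5:**
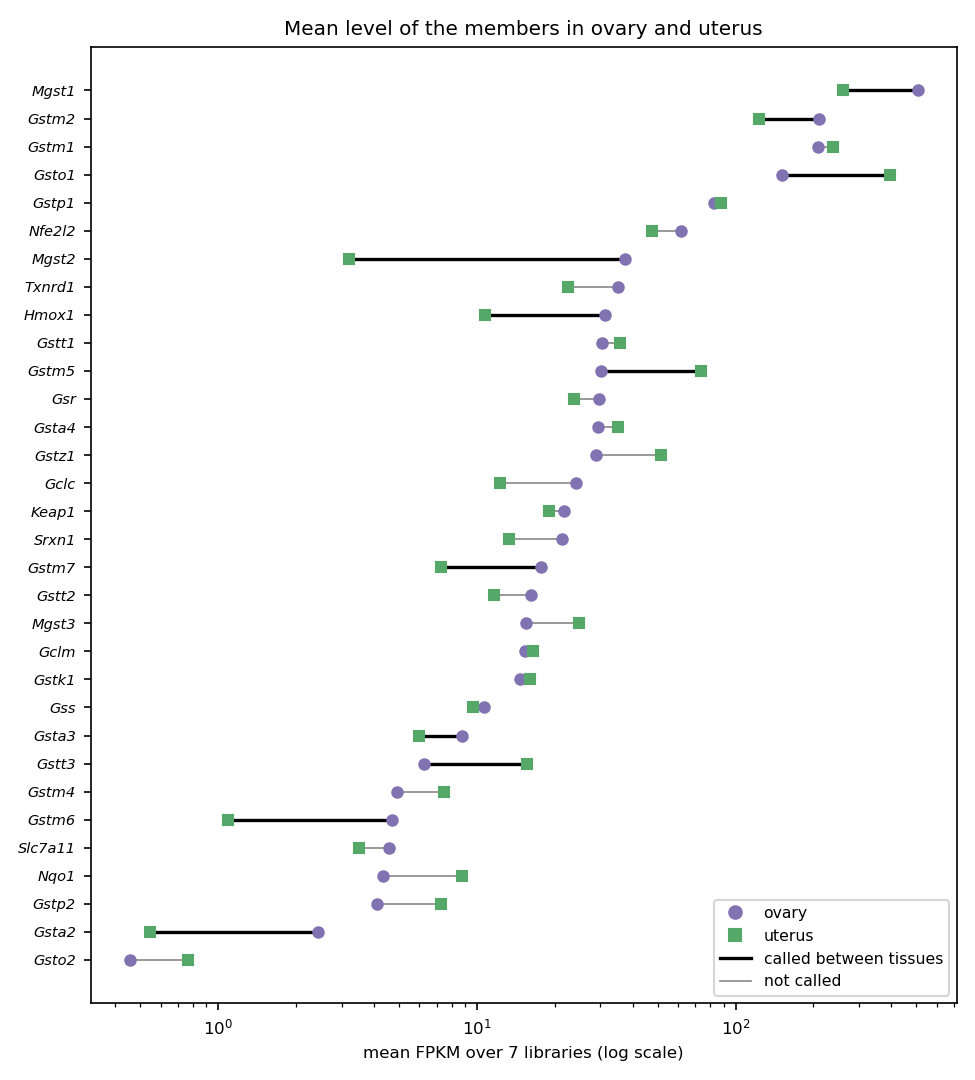
Mean FPKM over the 7 libraries of each tissue (log axis) for the members tested, ordered by the ovarian mean, with thick lines for members called between tissues on the log2 scale. Mgst2 shows the widest gap, from 37.3 FPKM in the ovary to 3.20 FPKM in the uterus, and Mgst1 in the ovary (506 FPKM) and Gsto1 in the uterus (394 FPKM) are the highest.

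The make-up of the transferase pool also differed between the tissues. On the scale of FPKM, which is per length, Mgst1 held 35.8% of the transferase sum in the ovary, followed by Gstm2 (15.0%), Gstm1 (14.7%), Gsto1 (10.7%) and Gstp1 (5.86%). In the uterus Gsto1 came first with 28.1% over the 7 libraries, followed by Mgst1 (18.5%), Gstm1 (17.0%), Gstm2 (8.77%) and Gstp1 (6.29%). Gsto1 had the highest mean in both groups of uteruses, and the order below it differed. In the OC uteruses the means were 362 FPKM for Gsto1, 213 FPKM for Gstm1, 178 FPKM for Gstm2 (set by OC1) and 154 FPKM for Mgst1. In the OT uteruses they were 418 FPKM for Gsto1, 339 FPKM for Mgst1 and 258 FPKM for Gstm1. Only in the OT1 uterus did Mgst1 (688 FPKM) and Gstm1 (534 FPKM) exceed Gsto1 (207 FPKM). The same 5 genes thus made up 82.1% of the ovarian and 78.7% of the uterine sum. Mgst1 ranked 78th of all genes by mean FPKM in the ovary, and Gsto1 ranked 154th in the uterus.

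Other genes of the pathway were taken from 5 lists of 48 genes (further NRF2 regulators, further NRF2 targets, NADPH supply, glutathione handling and other transferase-like genes). In the ovary, 0 of 44 tested were called, beside 0.368% of all genes called higher and 0.0832% lower. In the uterus, 2 of 46 were called higher and 0 lower, beside 2.23% and 0.664% of all genes, and their median log2 fold change was 0.18. The 2 called were Aldh3a1, of the further NRF2 targets, and Ltc4s, of the other transferase-like genes. Aldh3a1, an aldehyde dehydrogenase of the cornea and squamous epithelia, had a log2 fold change of 3.9996 (SE 1.07, adjusted p = 0.485, limma). That of Ltc4s, the leukotriene C4 synthase, was 1.75 (SE 0.57, adjusted p = 0.55, limma). Aldh3a1 was listed at 0 or measured up to 0.347 FPKM in the OC uteruses, and measured 10.7, 0.488, 11.8 and 3.57 FPKM in the OT uteruses. It passed the filter only through its OT values, and the size of its fold change depends on the 0.1 FPKM added. The squamous marker Krt5 in the same OT uteruses was 37.1, 11.7, 299 and 159 FPKM, and its part was not tested. All 6 NADPH supply genes (G6pdx, Pgd, Taldo1, Tkt, Me1, Idh1) had a log2 fold change above 0 in the uterus, with a median of 0.70, and none was called. The OT1 uterus was the highest for all 6 (for example 118 FPKM of Me1 against 7.27 to 24.9 FPKM in the others), and it also had the highest adipocyte markers, whose part in these values was not tested. The 8 further regulators, which include the repressor Bach1, the small MAF genes and the ligase scaffold Cul3, had a median of 0.04 and none was called.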

How the data were processed

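Libraries of rRNA-depleted total RNA came from both organs of each of 7 mice, 3 OC and 4 OT, and libraries were assigned to groups by their labels. An ovary and a uterus library of the same mouse name were taken to come from 1 mouse. Skewer 0.2.2 (trimming), STAR 2.5 (mapping to mm10) and Cufflinks 2.2.1 (quantification) were run by the authors. The deposited values were FPKM per gene for 21853 genes, so the depth and its counting error are unknown and a count test was not possible. Cuffdiff, the study's tool for differential expression, needs the reads and was not run here. Gene identifiers were matched to GENCODE M21 (GRCm38) for symbols and positions.

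FPKM were used as deposited. limma 3.58.1 (R 4.3.3, lmFit and eBayes with trend) was fitted on log2(FPKM + 0.1) for genes that averaged 0.5 FPKM or more, per tissue for OT against OC and over all 14 libraries for the contrasts between tissues, with Benjamini-Hochberg adjustment over all genes tested. A fold change on this scale understates the change of low genes. The members, the gene lists and the tests were chosen with earlier results of these data known. Per-library values are given for Nfe2l2, Keap1, 7 NRF2 targets, every member called in a treatment contrast and the most abundant members of each tissue. Values of Gss, Gstk1, Gstm7, Krt5, Ltc4s, Me1, Ovgp1, Upk1a, Upk1b and Upk3b were added after they were seen. Coding sequences compared between paralogs were the longest open reading frame of the lowest-numbered protein-coding transcript, without Gstm6. The fit was tested on simulated data. Python 3.11.15, numpy 2.4.6, pandas 2.3.3 and matplotlib 3.10.9 were used. The alternatives were pseudocounts of 1 and 0.01, no filter or a mean of at least 1 FPKM, scaling to the 75th percentile, quantile normalization, robust eBayes, 1 fit of 14 libraries, an adipocyte covariate, a replicate block and leaving out each mouse in turn.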

Additional observations from a re-analysis of the deposited data

Results flagged for a closer look

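A library far from the others of its group was found in 5 of 63 groups of 4 libraries, where chance flags about 1 in 20 groups, or 3.15 here. In the OT uteruses, OT1 was far above the others for Keap1 (20.6 FPKM against 18.4 to 18.6), Gsta3 (23.1 FPKM against 4.35 to 4.97), Gstm1 (534 FPKM against 149 to 177) and Mgst2 (15.0 FPKM against 1.55 to 2.24). OT4 was far below the others for Gstp2 (4.58 FPKM against 8.88 to 9.40).

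The effect of the treatment differed between uterus and ovary for Gsta3 (difference of log2 fold changes 1.58), Gsta4 (1.54) and Mgst2 (2.78) by the interaction term of limma at the unadjusted cutoff. The adjusted p was 0.844 for all 3.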

How the results depend on the processing

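In the ovary, 0 members were called in each of 17 alternatives, while 2 of the 31 had an unadjusted p of 0.05 or less in the reported fit. The counts of members called between tissues stayed within 1.5 times in all 15 alternatives tried. With the adipocyte covariate, 2 members were called higher in the uterus in place of 5, the median of all members tested became -0.070, and the log2 fold changes of Gsta4 (-0.065), Gstz1 (-1.003), Mgst2 (-1.34) and Mgst3 (-0.61) turned. The adipocyte markers separate the groups, so this fit cannot divide the effect. With a pseudocount of 1, 1 member (Gsta4) in place of 3 was called for the difference of the OT effect between tissues.

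Leaving out each mouse in turn gave 2 (without OC1) to 6 (without OT4) members called higher and 0 to 1 lower in the uterus. Of all genes tested, 287 of 14150 were called higher without OC1 and 416 of 14161 without OT4. Without OC2, OC3 or OT1, 3 members were called higher, beside 265 of 14169, 258 of 14177 and 243 of 14105 genes. The same omissions gave 1 (without OC1) to 4 (without OT4) higher and 0 to 1 lower for the difference between tissues, with Slc7a11 the 1 called lower in both, without OT2. For this difference, 155 of 14553 genes were called higher without OC1 and 232 of 14541 without OT4. Without OT2, 118 of 14113 genes were called lower in the uterus and 104 of 14541 for the difference. OC and OT mice that share a number are not the same animal. The deviations of their libraries from the group means correlated by 0.33, 0.086 and 0.069 for the ovaries and by 0.025, 0.057 and 0.042 for the uteruses, not every library correlated best with its own number, and the numbers were not taken to pair them. With the replicate number as a replicate block and OT4 left out, 5 members were called higher in the uterus, Mgst1 in place of Mgst2 (log2 fold change 3.09, not called), and 0 in the ovary. The mouse as a block changed no call between tissues. No member reached an adjusted p under 0.05 between OT and OC in any alternative. Over all genes in the ovary, the counts called higher and lower were 53 and 12, against 16 and 2 with a pseudocount of 1, 99 and 60 with no filter, 69 and 34 with the replicate block, 45 and 36 with the covariate, and 104 and 33 without OT3. In the uterus they were 316 and 94, against 202 and 57, 427 and 152, 428 and 238, and 442 and 203 in the first 4 of these. For the difference between tissues they were 186 and 81, against 105 and 29 with a pseudocount of 1 and 298 and 140 with no filter. FPKM hold no depth, so the counting error of the low genes Mgst2, Gsta2 and Gsta3 is unknown.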
